A study of Mus musculus with 18 samples.

Results

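Methylated DNA of hindlimb skeletal muscle was compared with that of T cells from the spleen, both taken from 2-month-old female C57BL/6J mice. Each tissue is 1 column of a table of captured methylated DNA (MBD-seq), and every 500-bp bin of chromosomes 1 to 19 was taken, which gave 4783931 of the 5128560 bins in the table. DNA of 3 mice was pooled for each tissue and age before capture, so each tissue is 1 pool with no replicate, and no test between the tissues can be made. Muscle was whole tissue ground to powder, which also holds vessels, connective tissue and blood cells, while T cells were separated from spleen with magnetic beads (a pan T cell isolation kit). In bulk DNA of this kind, a cell type that makes up more of the sample and more captured DNA per cell cannot be told apart. The 3 samples concerned, among 18 in the series, include 2 captures of 2-m muscle, and the single muscle column does not say which one it holds, or whether it holds both. Libraries made in the same way from other mice at 20 and 28 months were used to ask whether differences found at 2 months kept their direction and which 2-m library stood apart from later ones, and as alternatives. The RNA used below came from hindlimb muscle of 3 mice of 2 months, as 3 separate libraries.

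Methyl-CpG-binding domain capture retains DNA fragments that carry methylated CpGs, so its read count grows with both the number of CpGs in a fragment and their methylation. In mammals most CpGs outside CpG islands are methylated in every tissue, and tissue-specific differences are known mostly from promoters without islands and from enhancers, which tend to be unmethylated in the cell types that use them, while the bodies of transcribed genes are typically methylated. T cells also rearrange the DNA of their receptor genes, and the segments lying between joined V and J segments are deleted from the chromosome.

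A set of stretches is printed to show what kind of sequence carries the differences. They come from the strongest differential regions in each direction, as defined further on, that stayed past 2-fold at 20 and 28 months and share no 25-base word with the mitochondrial genome. Each is the middle 300 bases of the 500-bp bin with the largest difference among those bins of the region that hold no annotated exon, read 5′ to 3′ on the plus strand of GRCm38 (mm10), with CpGs in capitals.
Mir142 (muscle higher), chr11:87757101-87757400: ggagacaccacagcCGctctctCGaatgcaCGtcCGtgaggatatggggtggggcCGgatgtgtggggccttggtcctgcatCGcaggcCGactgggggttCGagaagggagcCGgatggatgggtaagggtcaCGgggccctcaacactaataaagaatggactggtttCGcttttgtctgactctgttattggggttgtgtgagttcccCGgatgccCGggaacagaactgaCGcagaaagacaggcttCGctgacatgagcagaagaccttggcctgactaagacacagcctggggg
Cytip (muscle higher), chr2:58161101-58161400: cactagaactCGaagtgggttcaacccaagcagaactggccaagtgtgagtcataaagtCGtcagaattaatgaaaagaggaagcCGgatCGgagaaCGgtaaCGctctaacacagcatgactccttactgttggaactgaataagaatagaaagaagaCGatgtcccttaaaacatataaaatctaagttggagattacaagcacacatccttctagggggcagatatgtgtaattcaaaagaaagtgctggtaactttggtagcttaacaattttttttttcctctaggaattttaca
Lcp1 (muscle higher), chr14:75179101-75179400: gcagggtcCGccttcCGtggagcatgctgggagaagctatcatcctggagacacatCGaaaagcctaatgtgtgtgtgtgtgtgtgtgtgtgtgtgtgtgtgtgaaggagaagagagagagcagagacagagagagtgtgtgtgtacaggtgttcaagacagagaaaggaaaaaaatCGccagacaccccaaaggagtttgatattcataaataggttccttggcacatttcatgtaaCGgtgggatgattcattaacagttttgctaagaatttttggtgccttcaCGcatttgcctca
Nfic (T cells higher), chr10:81413601-81413900: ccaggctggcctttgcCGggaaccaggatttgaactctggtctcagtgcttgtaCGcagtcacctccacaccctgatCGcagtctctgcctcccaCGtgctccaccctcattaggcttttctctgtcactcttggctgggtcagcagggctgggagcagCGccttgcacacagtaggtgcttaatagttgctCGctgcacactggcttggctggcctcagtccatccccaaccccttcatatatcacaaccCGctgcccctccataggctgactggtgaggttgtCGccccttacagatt
Hspg2 (T cells higher), chr4:137489101-137489400: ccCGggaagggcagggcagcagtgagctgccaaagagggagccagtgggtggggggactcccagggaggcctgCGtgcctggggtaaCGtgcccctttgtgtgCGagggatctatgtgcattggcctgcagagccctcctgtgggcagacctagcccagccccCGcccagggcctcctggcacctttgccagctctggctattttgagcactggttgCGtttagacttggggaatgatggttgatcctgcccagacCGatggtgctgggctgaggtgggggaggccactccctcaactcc
LOC102637806 (T cells higher), chr1:89931601-89931900: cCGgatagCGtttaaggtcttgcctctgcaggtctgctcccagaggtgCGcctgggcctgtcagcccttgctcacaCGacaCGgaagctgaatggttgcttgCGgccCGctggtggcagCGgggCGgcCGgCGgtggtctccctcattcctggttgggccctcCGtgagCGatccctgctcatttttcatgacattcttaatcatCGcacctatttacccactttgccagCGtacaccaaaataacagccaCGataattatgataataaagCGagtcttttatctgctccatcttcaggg
The stretch beside Mir142, a microRNA gene of blood cells, lies in a bin with 90.1 normalized counts in muscle and 3.05 in T cells. The bin in an intron of Lcp1, which encodes the leukocyte actin-bundling protein L-plastin, held 60.0 in muscle and no read in T cells, so it was at least 19.7-fold higher in muscle. In Cytip, whose product regulates leukocyte adhesion, 30.0 stood against no read, or at least 9.86-fold. The Nfic bin, in a transcription factor gene used in many tissues, ran the other way with 85.3 in T cells and no read in muscle, or at least 31.2-fold. For Hspg2, the gene of the basement membrane proteoglycan perlecan, the bin held 37.6 in T cells and 0.91 in muscle, and for LOC102637806, an uncharacterized gene, 70.0 and 8.19. The 6 stretches hold between 6 and 17 CpGs each. Folds against a tissue with no read use a floor of 3 reads per library, and all intervals below are exact binomial 95% intervals that cover counting error only, since reads amplified by PCR and counted as single mates are not independent molecules.

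The libraries held 131339386 (muscle) and 192805995 (T cells) reads on these bins. A very small part of the genome took much of this depth. The 1000 bins with most reads carried 30.6% of the normalized count in muscle and 56.7% in T cells, and the pair of bins at chr2:98666501-98667500, of which 95.8 and 77% of the bases are repeat-masked, carried 14.8% and 30.2%. T cells were higher in both, with 35081344 against 10400125 normalized counts in the fuller one (3.37-fold). Among the 100 fullest bins, T cells were higher in 99 and past 2-fold in 93. Outside the 1000 bins the sums of both libraries were nearly equal (log2 ratio of -0.03). The size factors made the bulk of the genome, not the totals, comparable: with both libraries set to the same sum, the log2 ratio of 2 large sums moves up by 0.71 towards muscle, and the mean log2(value + 1) difference of bins goes from 0.24 to 0.79.

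Genome-wide, the profiles of the tissues were close. Of 4435467 bins with a read in either library, the median normalized count was 9.10 in muscle and 8.12 in T cells, with a Pearson r of 0.83 over bins on log2(value + 1), given as a description. On that scale the difference, muscle minus T cells, averaged 0.24 ± 0.04 (SD over the 19 autosomes, which are not replicates) and ranged from 0.17 on chromosome 11 to 0.30 on chromosome 3. Muscle was at least 2-fold higher in 949152 bins (21.4%) and T cells in 544948 (12.3%), but most of these bins hold few reads. Among the 1366275 bins with a mean of at least 20, the order turned: muscle was past 2-fold in 4.32% and T cells in 8.44%. With the same sum in both libraries, the called bins split into 1844776 and 236213, so 88.6% instead of 63.5% of them were higher in muscle.

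In the values as deposited, the sign of the difference followed the CpG count of the bin. With equal sums it did not, since bins of 7 to 14 CpGs then averaged 0.49 and those of 15 or more 0.41. Bins without a CpG had a median of 1.82 in muscle and 1.02 in T cells, and their mean log2 difference was 0.52 ± 0.02. With 3 to 4 CpGs the mean difference was 0.30 ± 0.02, with 5 to 6 it was 0.00 ± 0.02, and with 10 to 14 it was -0.24 ± 0.02 (SD over autosomes throughout). In bins of 15 to 29 CpGs the medians were 85.5 in muscle and 102 in T cells. The ratio of that median to the median of bins without a CpG was 47 in muscle and 100 in T cells, where the CpG-free medians are 2 reads and 1 read, so the ratios are coarse. How much of the genome-wide trend comes from the capture was not tested. As 1 class, bins with 30 or more CpGs had medians of 1.82 and 3.05, although those with exactly 30 still had 71.4 and 93.4.

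**Figure D1:**
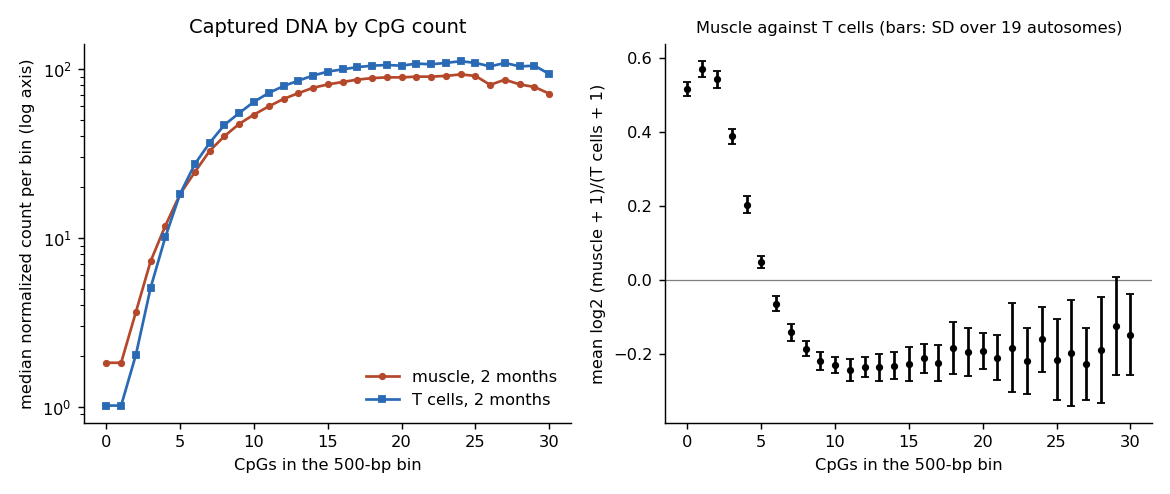
Median normalized count per 500-bp bin (left, log axis) and mean log2 difference between muscle and T cells (right) against the number of CpGs in the bin, at 2 months. Bars are the SD over 19 autosomes. The mean difference lies above 0 at 0 to 4 CpGs and below 0 from 6 CpGs on.

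Position in the genome gave the same order. Bins between genes averaged 0.29 ± 0.03, introns 0.23 ± 0.04 and exons 0.06 ± 0.04. Bins at gene starts inside CpG islands averaged -0.17 ± 0.07, islands elsewhere -0.18 ± 0.07, and gene starts outside islands 0.04 ± 0.06. Bins with at least 50% of their bases repeat-masked averaged 0.33 ± 0.04, against 0.22 ± 0.04 in bins masked to a lesser part and 0.06 ± 0.04 in bins with nothing masked. Within classes of equal CpG number, bins masked to at least 50% and all others averaged 0.57 and 0.54 for 0 to 2 CpGs, 0.25 and 0.17 for 3 to 6, -0.11 and -0.21 for 7 to 14, and -0.15 and -0.23 for 15 or more.

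Summed over 100-kb windows, the profiles nearly coincided. The log2 ratio had a median of 0.02 and an SD of 0.19 over 23988 windows, the 5th and 95th percentiles were -0.27 and 0.30, and the ratio was lower in windows richer in GC. The 4798 windows poorest in GC had a median of 0.16 and the 4797 richest -0.12. Muscle was at least 2-fold higher in 15 windows (0.0625%) and T cells in 26 (0.108%). With equal sums the split was 1308 and 1, that is, 99.9% instead of 36.6% of the called windows were higher in muscle.

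The named windows with more captured DNA in muscle lie at genes of blood cells, at the T-cell receptor alpha and delta locus, at Hoxc genes and at a few predicted genes. The highest, chr9:123900001-124000000 with the chemokine receptor genes Ccr1 and Ccr1l1, held 4326 normalized counts in muscle and 1207 in T cells (3.58-fold, interval 3.36 to 3.82). In the libraries of older mice it held 1401 and 1656 in muscle and 1263 and 1161 in T cells, so the 2-m muscle pool is the one that stands apart. Ptprc, which encodes the leukocyte surface phosphatase CD45, overlaps chr1:138100001-138200000, with 2399 against 942 (2.55-fold, 2.36 to 2.75). Its log2 ratio was 1.35 at 2 months and 1.09 and 1.07 at 20 and 28 months. Most of the Hoxc cluster (chr15:102900001-103000000, Hoxc13 to Hoxc6) held 1486 against 579 (2.57-fold, 2.33 to 2.83). Windows of chromosome 14 from 53700001 to 54200000 belong to the T-cell receptor alpha and delta locus. Windows at chr5:15500001-15600000 (Gm21190, Gm21083) and chr13:65600001-65700000 (Gm53057) held about as much more in 2-m muscle than in muscle of the older pools, 2.00 and 2.04 times. The window at chr1:24600001-24700000 holds a stretch, chr1:24611501-24616500 at Gm10222 and Gm10925, of whose 25-base words 92.1% also occur in the mitochondrial genome. There muscle had 529 normalized counts per bin and T cells 33.6, and mitochondrial DNA itself was 27.6-fold higher in muscle.

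Some of the windows higher in T cells held very full bins. In chr9:35300001-35400000, chr12:3100001-3200000 and chr13:77400001-77500000 a single bin carried between 63.7 and 72.9% of the count in each tissue, and the T-cell surplus was 3.25-, 3.06- and 2.82-fold. The mean of the per-bin log2 differences in these windows was 0.13, 0.21 and 0.32, on the side of muscle. In chr10:3100001-3200000, chr4:118500001-118600000 and chr6:47700001-47800000 the fullest bin carried less, and T cells were 2.53-, 2.40- and 2.26-fold higher. The first of these also turned to the side of muscle by the mean over bins (0.13) and without the 1000 fullest bins (0.10). Other differences were spread over many bins. In chr4:42600001-42700000, with the chemokine gene Ccl27b and the interleukin receptor gene Il11ra2, 4767 normalized counts in T cells stood against 1420 in muscle (3.36-fold), and 129 of 200 bins were past 2-fold. In chr4:42100001-42200000, with Ccl21b, it was 4701 against 1484 (3.17-fold). Muscle of 20 and 28 months held 3866 and 3438 in the first of these and 4084 and 3418 in the second, so here too the 2-m muscle library differed from both later ones. The windows chr14:25900001-26000000 (Plac9a, Tmem254a, Cphx1, Duxbl1) and chr14:69400001-69500000 (Gm16867, Gm21451) had the same pattern, with 2-m muscle at 0.54 and 0.55 of the mean of the later muscle libraries. Of the called windows, 20 of the 26 windows higher in T cells and 6 of the 15 higher in muscle had a 2-m muscle value more than 1.5-fold away from the mean of the later muscle values, with T cells within it. In 6 of those 20 and 1 of those 6, however, 2-m muscle was within 1.5-fold of 20-m muscle, and the 28-m muscle library was the one apart. In 7 of the 15 only the 2-m T-cell value was that far from its later mean. Whether such differences come from methylation or from the number of DNA copies in these mice was not tested.

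The T-cell receptor alpha and delta locus had more captured DNA in muscle over a long stretch. The V segments span chr14:52427967-53977676 and were divided into 3 stretches of equal length. The one farthest from the J segments held 12231 normalized counts in muscle and 13543 in T cells (log2 -0.15), the middle one 11072 and 10714 (0.05), and the nearest 15234 and 8751 (0.80). Between the last Trav segment and the D segments it was 4371 against 1560, a ratio of 2.80 (2.64 to 2.97), with 160 of 271 bins past 2-fold in muscle and 2 in T cells. The 63.8 kb of alpha J segments held 3488 against 1333 (2.62-fold, 2.46 to 2.79), and the C segment 205 against 68.0 (3.01-fold, 2.28 to 4.02). In the 200 kb after the C segment the ratio was 0.90, and in the 200 kb before the V segments 0.85. The surplus of muscle thus ran from the V segments nearest to J up to the C segment and ended there.

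At Tcrb the surplus of muscle was again next to the D, J and C segments. The V stretch nearest to the D and J segments held 3172 against 1686 (1.88-fold, 1.77 to 2.00), and the D, J and C segments 456 against 153 (2.97-fold, 2.47 to 3.59). The flanks were at 1.00 and 1.07. The gamma locus, at 3271 against 2733 (1.20-fold), and the immunoglobulin loci, which are rearranged in B cells, were nearer to equality. The heavy-chain V segments stood at a ratio of 0.88, the stretch from the J segments to Ighm at 1.24, and the kappa V segments and the kappa J and C segments at 1.07 and 1.03. In the libraries of older mice T cells held more at the J and C ends of the T-cell receptor loci. The alpha J segments held 3007 and 3320 normalized counts in T cells at 20 and 28 months, and the log2 difference from muscle was 0.13 and -0.23 there, against 1.39 at 2 months. The alpha C segment was still 2.21-fold higher in muscle at 20 months, and its ratio was 0.96 at 28 months. For the D, J and C segments of Tcrb the difference was 0.37 and -0.40, against 1.57. Less methylation and fewer copies of these loci in T cells cannot be told apart in these counts.

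**Figure D2:**
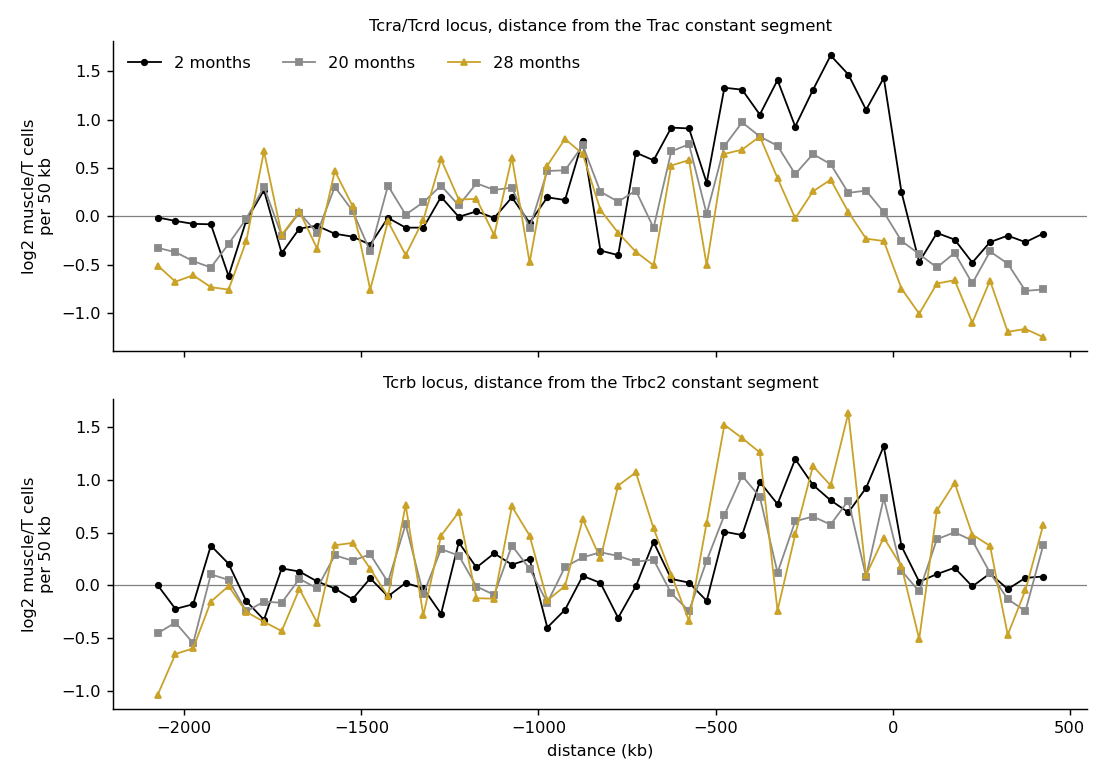
Log2 ratio of captured DNA in muscle over T cells per 50 kb, against the distance in kb from the constant segment of the T-cell receptor alpha (top) and beta (bottom) loci, for the pools of 2, 20 and 28 months. At 2 months the ratio rises towards the constant segment and drops beyond it. At 20 and 28 months the 50-kb step just before the alpha constant segment lies at 0.04 and -0.25.

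At finer scale, differential regions were defined as runs of at least 2 adjacent bins that each differed 4-fold on log2(value + 1) in 1 direction with at least 20 normalized counts in the higher tissue. Muscle was higher in 2732 of them (3063 kb) and T cells in 3415 (3716 kb). Most were short: the median was 2 bins in both directions, and the longest runs had 10 and 7. Muscle-higher regions had medians of 38.7 and 4.06 in muscle and T cells, and T-cell-higher regions 6.37 and 47.7. These values made the choice and are a description. The regions were poor in repeats, with 5.86 and 1.90% of them at least 50% masked against 20.2% of all bins with a mean of 20 or more. Gene starts in CpG islands made up 1.13 and 3.25% of the regions and 0.172% of those bins, and gene starts outside islands 4.87 and 4.25% against 1.06%, though a region spans several bins and so has more chances to touch a start. Introns made up 41.2 and 41.5% of the regions and 42.8% of the bins. The split depends on the scaling: with equal sums it was 10580 and 817, or 92.8% instead of 44.4% higher in muscle.

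The other pools had no part in choosing the regions. At 20 months 97.8% of the T-cell-higher regions and 89.3% of the muscle-higher ones kept their direction, and at 28 months 96.5 and 79.5%. A difference of 2-fold remained in 88.9 and 58.5% at 20 months and in 84.8 and 51.5% at 28 months. The older pairs as a whole lay more to the T-cell side: the median log2 ratio of all 100-kb windows was 0.02, -0.07 and -0.14 at 2, 20 and 28 months. The shares of the 2 directions therefore do not stand on an equal base. In the muscle-higher regions the T-cell median was 4.06 at 2 months and 10.5 and 10.6 at 20 and 28 months, while muscle went from 38.7 to 31.6 and 24.2. In the T-cell-higher regions muscle went from 6.37 to 8.84 and 11.8, and T cells from 47.7 to 48.1 and 50.9. Regions were chosen for a wide difference at 2 months, so some narrowing in other libraries follows from the choice itself. The 28-m muscle library separated CpG-rich from CpG-free bins far less than the others, at medians of 37.0 and 4.46.

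**Figure D3:**
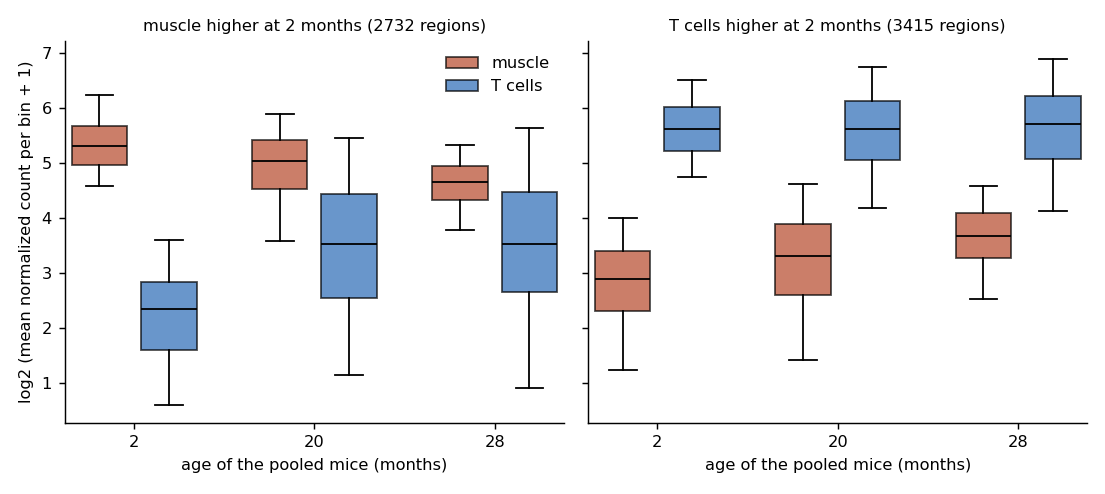
Mean normalized count per bin, as log2(value + 1), of the 2732 regions higher in muscle (left) and the 3415 higher in T cells (right) at 2 months, in the muscle and T-cell pools of each age. Boxes span the quartiles, lines are medians and whiskers reach from the 5th to the 95th percentile. The T-cell medians in the left panel and the muscle medians in the right panel are higher in the later pools than at 2 months.

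The first-ranked muscle-higher region was the mitochondrial-like stretch on chromosome 1 described above. The other 9 named ones lay in or beside the following genes. Lcp1 (chr14:75178001-75181000, intron) held 48.7 normalized counts per bin in muscle and 1.02 in T cells, a ratio of 47.9 (21.8 to 132), and in older mice 50.4 against 0 and 23.2 against 1.32. Cytip (chr2:58158501-58161500) held 52.8 against 1.18, and 45.2 against 0.81 and 25.3 against 0.88 later. The Mir142 region (chr11:87755001-87759000) held 46.3 against 2.03, and 44.3 against 0.91 and 25.6 against 1.82 later. These loci were low in T cells of all 3 ages. Rassf5, which encodes a lymphocyte adhesion regulator (chr1:131197001-131200500), held 48.9 against 3.19. Fam117a (chr11:95353001-95356500) held 41.7 against 1.89. Runx1, a transcription factor of blood development, had a region 324 bp from a start (chr16:92824001-92827500) with 52.8 against 5.08. In the other named regions of genes, Rassf5, Fam117a and Runx1 included, the T-cell values at 20 and 28 months were higher than at 2 months. Lhx2 (chr2:38352001-38357000) held 42.7 in muscle and 2.44 in T cells at 2 months, but 24.8 and 24.5 at 20 months. In the region at Ebf3 (chr7:137317501-137321500) T cells held 2.03 at 2 months and 22.5 and 12.1 later, and beside Prox1 (chr1:190171501-190174500) 0.68, then 9.53 and 12.8.

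Among the T-cell-higher regions the first was in Nfic (chr10:81411001-81414500), with 80.9 in T cells and 2.86 in muscle, a ratio of 28.3 (18.5 to 45.5). Later it held 77.7 against 2.29 and 92.3 against 7.83. An intron of Hspg2 (chr4:137487501-137490500) held 58.0 against 3.94, and an intron of Pxn, the gene of the focal adhesion protein paxillin (chr5:115508001-115510500), 37.4 against 1.82. A region 2274 bp inside Klf9, a gene of a zinc finger transcription factor (chr19:23142501-23144500), held 46.9 against 0.91, and one in Lima1, a gene of an actin-binding protein (chr15:99818001-99820000), 54.1 against 1.14. The others were at LOC102637806 (chr1:89931501-89934500), Gtpbp3 (chr8:71494001-71497000) and Cep41 (chr6:30673501-30676000), and 2 between genes (chr15:85676501-85680000 and chr19:43600501-43603500, the latter 10325 bp before Nkx2-3). All 10 were past 2-fold on the T-cell side in the 20-m and 28-m pools.

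Around gene starts, the bins within 1 kb of the outermost start were summed. Of 20558 protein-coding genes, 13856 had at least 20 normalized counts in the higher tissue. Their median log2 difference was -0.22 ± 0.05 (SD of the medians over autosomes). Muscle was at least 2-fold higher at 1072 starts (7.74%) and T cells at 2356 (17.0%). With equal sums the counts were 3397 and 726, and the median 0.53. The main list medians are therefore also given relative to the median of all starts. Starts in CpG islands were past 2-fold on the T-cell side in 22.5% and those outside in 12.1%, and on the muscle side in 7.06 and 8.34%. In gene bodies, beyond 1 kb, differences were smaller: of 18421 genes, 231 were past 2-fold in muscle (1.25%) and 329 in T cells (1.79%), against 1651 and 76 with equal sums.

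Genes of the T-cell receptor complex and its signalling had more captured DNA at their starts in muscle. Of 30 genes, 27 passed the minimum, 22 were at least 2-fold higher in muscle (7.74% of all starts that passed) and none in T cells (17.0%), and the median was 1.69, or 1.92 above all starts. Lck, the kinase that starts receptor signalling, held 202 in muscle and 32.5 in T cells. Cd5, an inhibitory coreceptor, held 97.3 against 19.3. The adaptor gene Grap2 held 150 against 8.12, and the adaptor gene Lcp2 81.9 against 8.12 (10.1-fold, 4.90 to 24.1). Tespa1, needed in thymocyte development, held 20.9 against no read, at least 6.87-fold. The receptor subunit genes Cd3e, at 172 against 55.8, and Cd3d, at 146 against 42.6, were less far apart, which did not hold for every subunit. At Rasgrp1 (47.3 and 51.8) and the start of Ptprcap (68.2 and 66.99) the tissues were about equal. In bodies, Ptprcap held 79.1 against 9.14, Cd3d 214 against 34.5 and Cd2 695 against 174. At 20 months 19 of the 22 starts kept their direction, and at 28 months 10. Of all starts past 2-fold in muscle, 74.7 and 77.4% kept it, so the list fell below that share at 28 months.

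Genes of lymphocyte homing, cytokine receptors and costimulation had the widest differences. Of 29 genes 23 passed the minimum, 18 were past 2-fold in muscle (7.74% of all starts that passed) and 1 in T cells (17.0%), and the median was 2.17, or 2.40 above all starts. Dock2, which drives lymphocyte migration, held 106 in muscle and 1.02 in T cells, a single read (ratio of 105, interval 18.5 to 4177). Ly9 and Gimap5, genes of a costimulatory receptor and of a GTPase of lymphocyte survival, held 45.5 and 40.03 against 1.02 each. Itgal and Itgb2, the subunits of the integrin LFA-1, held 134 against 13.2 and 95.5 against 7.11. The homing receptor gene Ccr7 held 122 against 26.4, and S1pr1, the receptor for leaving lymph nodes, 21.8 against 2.03 at the start and 322 against 69.0 in the body. Ifngr1 was the exception, at 11.8 against 30.5 within 1 kb. Within 500 bp its sign turned (0.48), but on a few reads, below the minimum of 20 normalized counts. The direction was kept in 17 of the 18 at 20 months and in 15 at 28 months, against 74.7 and 77.4% of all starts past 2-fold in muscle.

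Of 25 T-cell transcription factor genes on chromosomes 1 to 19, 12 passed the minimum, of which 4 were past 2-fold in muscle and 1 in T cells (7.74 and 17.0% of all starts that passed). Runx1 held 234 against 13.2 (17.7-fold, 10.2 to 33.7), Runx3 224 against 57.9 and Prdm1 44.6 against 11.2. Ets1 held 48.2 against 107. In bodies Tcf7 held 2270 against 765 and Ikzf1 3488 against 1742.

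Genes of the muscle contractile apparatus were the mirror image, with a smaller difference. Of 33 genes 28 passed the minimum, and 11 starts were past 2-fold in T cells (17.0% of all starts that passed) and none in muscle (7.74%), and the median was -0.78, or -0.56 relative to all starts. Mybpc2, the gene of fast myosin-binding protein C, held 12.7 in muscle and 109 in T cells (8.53-fold, 4.87 to 16.1). Mylk2, the gene of skeletal myosin light chain kinase, held 33.7 against 145, and Mybpc1 21.8 against 78.2. In bodies, the tropomyosin genes Tpm2 and Tpm1 held 196 against 620 and 1021 against 2315, and Acta1, the skeletal alpha-actin gene, 107 against 223. Among 27 genes of energy metabolism and calcium handling, 24 of which passed, 11 were past 2-fold in T cells and none in muscle, with a median of -0.83, or -0.61 relative to all starts. Pygm, the gene of muscle glycogen phosphorylase, held 22.7 against 212 (9.33-fold, 6.15 to 14.7). Casq1, which encodes the calcium store protein calsequestrin, held 85.5 against 327, and Cacna1s, the gene of a voltage-gated calcium channel, 54.6 against 190. At 20 months 10 of the 11 kept their direction in each of these lists, and at 28 months 10 and 9. These counts are near the share of all starts past 2-fold in T cells, of which 90.7 and 81.7% kept it.

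Among 22 regulators of myogenesis, 17 passed the minimum, of which 4 were past 2-fold in T cells and 3 in muscle (17.0 and 7.74% of all starts that passed). The former include Mef2c (44.6 against 112) and Mstn, the gene of myostatin (79.1 against 212). The developmental genes Tbx15 (21.8 against 4.06), Pax7 (45.5 against 17.3) and Pax3 (30.9 against 6.09) were those higher in muscle. For Pax3 the bins within 500 bp ran the other way (-1.41), so the surplus of muscle lay farther from the start.

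**Figure D4:**
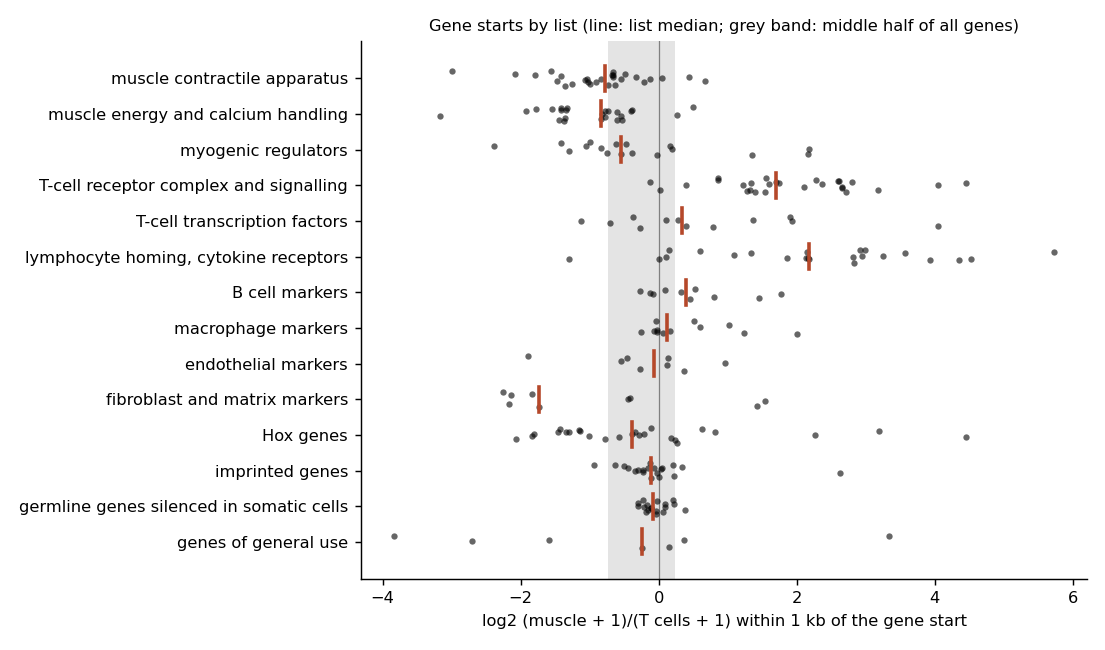
Log2 difference in captured DNA within 1 kb of the gene start, muscle over T cells at 2 months, for each gene that passed the minimum in 14 lists. Vertical lines are list medians and the grey band spans the quartiles of all protein-coding genes. The medians of both main T-cell lists lie to the right of the band and those of both main muscle lists at its left side. Each of these lists also holds genes on the other side of 0.

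**Figure D5:**
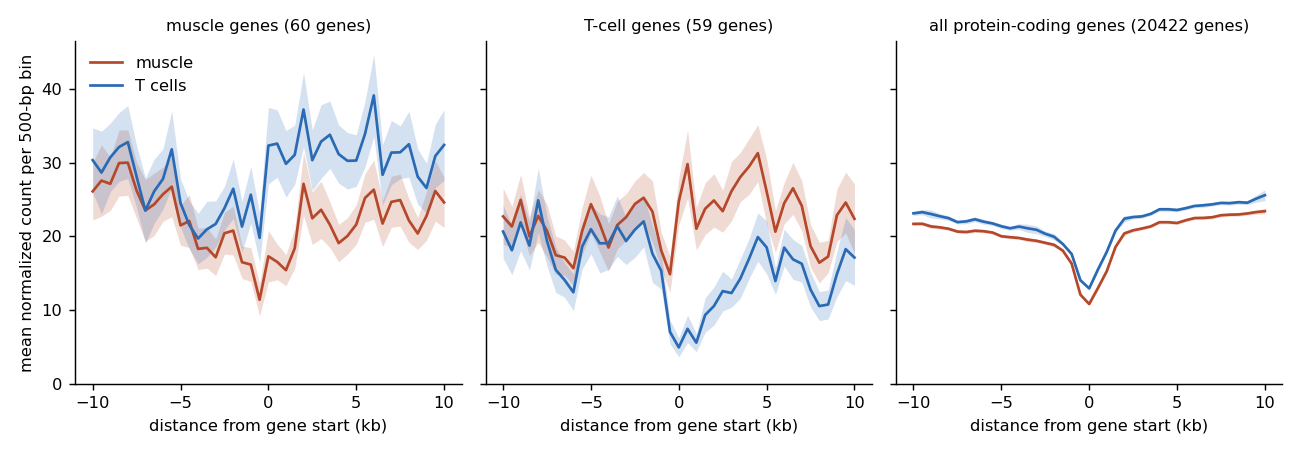
Mean normalized count per 500-bp bin in muscle and T cells against the distance in kb from the gene start, for 60 muscle genes, 59 T-cell genes and all protein-coding genes. Shading is the standard error over genes. In T-cell genes the T-cell mean falls to 4.94 at the start, where muscle has 24.7. In muscle genes T cells have 32.3 and muscle 17.3.

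Seen as a profile, the T-cell capture at T-cell genes was low around the start and stayed below muscle farther into the gene. Over 59 such genes the T-cell mean was 4.94 per bin at the start and 20.9 at 2.5 kb before it, while muscle held 24.7 and 24.4. At 2.5 kb after the start T cells held 12.6 and muscle 23.4. Over the 60 muscle genes the means at the start were 17.3 in muscle and 32.3 in T cells. Over all genes they were 10.8 and 12.9.

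Hox genes, the regulators of position along the body axis, differed by cluster. The Hoxc cluster as a whole held 2055 in muscle and 961 in T cells (2.14-fold, 1.98 to 2.31), Hoxd 2203 against 1656 (1.33-fold), Hoxa 4871 against 5385 and Hoxb 4352 against 6491 (log2 -0.58). In the 200 kb on either side of Hoxc the log2 difference was 0.06. At starts, 25 of 39 Hox genes passed the minimum, of which 10 were past 2-fold in T cells and 3 in muscle (17.0 and 7.74% of all starts that passed), and the median was -0.38, or -0.16 relative to all starts. Hoxc8 held 20.9 against no read (at least 6.87-fold), Hoxa10 119 against 12.2 and Hoxa11 57.3 against 11.2, while Hoxa4 (35.5 against 129) and Hoxd1 (10.01 against 37.6) were higher in T cells. Within 2 kb of the start the sign of Hoxd1 turned (0.097). Of 35 Hox bodies that passed, 12 were past 2-fold in muscle and 5 in T cells (1.25 and 1.79% of all bodies). There Hoxc11 held 64.6 against no read (at least 21.2-fold), Hoxc13 54.6 against 11.2 and Hoxa11 178 against 37.6, whereas Hoxb4 held 24.6 against 131, Hoxb1 23.7 against 72.1 (but 0.030 on the log2 scale when only DNA beyond 2 kb is counted) and Hoxa4 42.8 against 126. The T-cell count of the Hoxc cluster was 2235 and 3051 at 20 and 28 months, and its difference from muscle 0.23 and -0.76.

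Germline genes, which are silenced by methylation in somatic cells, and imprinted genes were close in both tissues at 2 months. None of 18 germline starts was past 2-fold in either direction (7.74% of all starts that passed were in muscle and 17.0% in T cells), and the median was -0.08, or 0.15 relative to all starts. Their mean count at the start was 138 in both tissues. Of 21 imprinted genes only Snrpn passed, at 36.4 in muscle and 5.08 in T cells at its outermost annotated start, among 20 measured, and the median was -0.11, or 0.11 relative to all starts. In the older libraries these medians were not near 0: -0.80 and -1.92 for the germline list and -0.91 and -2.05 for the imprinted list at 20 and 28 months, which bears on every direction counted there. Markers of other cells present in muscle or spleen were mixed, and their counts stand against 7.74% (muscle) and 17.0% (T cells) of all starts that passed the minimum. Of 12 fibroblast and matrix genes 9 passed, of which 5 were past 2-fold in T cells, among them Col6a1 (25.5 against 125), Col1a2 (10.9 against 52.8) and Col3a1 (6.37 against 31.5), and 2 in muscle, Tbx18 (46.4 against 15.2) and Tcf21 (31.8 against 11.2). Of 10 endothelial genes 8 passed, of which Tek was past 2-fold in T cells at its start (17.3 against 66.99). Of 10 endothelial bodies only that of Sox17 was (14.6 against 35.5, with 1.79% of all bodies past 2-fold in T cells). Bank1 (50.9 against 14.2) and Cd79b (54.6 against 19.3) were past 2-fold in muscle among 10 B-cell starts that passed (of 12), and Fcgr1 (43.7 against 10.2), Spi1 (124 against 51.8) and Csf1r (146 against 72.1) among 12 macrophage starts, all of which passed. Of 20 genes of general use 7 passed the minimum, and 1 of them was called in muscle and 3 in T cells. Eef1a1 was past 2-fold in muscle, at 40.03 against 3.05, and Eef2 (0.91 against 26.4), Gapdh (2.73 against 23.3) and Gusb (9.10 against 29.4, but 0.28 on the log2 scale within 2 kb) in T cells.

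Muscle RNA of the same mice had no part in the comparison of the captures. It held many muscle genes at very high normalized counts, such as Acta1 at 1249412, 1259919 and 1406635 in the 3 libraries. Others of the muscle lists were far lower, with means over the 3 libraries of 417 for Myh3 and 56.4 for Sln. Cd3d stood at 0, 1.76 and 0.72, but S1pr1, also in a T-cell list, had a mean of 1513. Genes were grouped by their RNA count per kb of exon. Among 2197 genes without a read the median difference at the start was -0.07 ± 0.10 (SD over autosomes), and with rising expression it was -0.16 ± 0.06, -0.19 ± 0.10, -0.33 ± 0.09 and, in the highest of 4 classes of equal size, -0.43 ± 0.07. The share of starts past 2-fold on the T-cell side went from 8.83% in genes without a read to 25.1% in the highest class, against 17.0% of all starts, while the share on the muscle side was 7.10, 7.79, 10.4, 8.11 and 5.94% over the 5 classes. The share of starts in CpG islands also went from 13.6 to 75.6% over these classes. Within genes without an island Spearman's rho between RNA per kb and the difference was -0.14 over 6213 genes, and within those with an island -0.02 over 5944. These are correlations across genes, which are not independent replicates.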

How the data were processed

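MBD-seq (capture of methylated DNA by a methyl-CpG-binding domain protein) was compared between 1 column of 2-m muscle and 1 of 2-m T cells. The authors trimmed reads with Trim Galore, aligned them to mm10 with Bowtie2, counted them in 500-bp bins with bedtools and divided the counts by DESeq2 size factors, so the deposited values are a normalized signal (normalized read counts). Muscle RNA values were deposited as a signal of the same kind, gene counts divided by size factors, with HTSeq as the counter. For the aligner, the submitters' processing notes name TopHat and the study's methods Hisat2. Tool versions are not repeated here. Each value was a whole multiple of what 1 read is worth (100% of values, tolerance of 0.01 reads), so reads could be recovered: 135321218 for muscle and 196263907 for T cells over the whole table. With 1 library per tissue no count test and no p-value is possible. The muscle column names no capture, although 2 captures of the same pooled DNA exist, and it may hold either or both, so none was assigned.

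Differences are log2(value + 1) per bin and log2 ratios of sums with a pseudocount of 1 for genes. "Called" means past 2-fold. Windows needed 100 bins of 500 bp. Gene starts and bodies needed 20 normalized counts in the higher tissue. CpG islands were set from the sequence (500-bp windows, GC of at least 55% and observed over expected CpG of 0.65). Bins and annotation use the RefSeq GRCm38 assembly. Python 3.11.15, numpy 2.4.6, pandas 2.3.3, scipy 1.17.1 and matplotlib 3.10.9 were used, and the region caller was tested on simulated data. The text names the 10 windows and 10 regions with the largest difference in each direction (under 50% masked, chromosome 18 left out), and in each list the 3 genes furthest apart each way among those past 2-fold. Other list members named (among them Lck, Cd5, Cd3e, Rasgrp1, Itgal, Itgb2 and Ccr7) were chosen after their values were seen. A few list members are counted but not reported here by name. Members and lists were chosen with earlier results of these data known. Alternatives were other scalings, pseudocounts, filters, window sizes, distances from the start, thinned T-cell reads and the older libraries. Scaling within each CpG count and windows without the 1000 fullest bins were added after seeing the data.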

Additional observations from a re-analysis of the deposited data

Results flagged for a closer look

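With 1 library per age and tissue, none of the differences between ages given here was tested. Among the genes and windows that the rule for named genes picks, 26 values in an older pair of libraries had the opposite sign to 2 months. Among genes with more captured DNA at the start in 2-m muscle, the log2 ratio of muscle over T cells for Pax3 stood at -1.26 in the 20-m and -1.65 in the 28-m pools, with -1.91 and -2.82 for Tcf21, -0.20 and -1.44 for Tbx18, and -2.69 and -2.03 for Hoxa11. It was -0.45 for Prdm1 at 20 months, and at 28 months -1.09 for Pax7, -0.51 for Runx3, -0.21 for Csf1r and -1.45 for Hoxc8. Starts higher in 2-m T cells turned to 0.11 (Ifngr1) and 0.65 (Col3a1) at 28 months, and to 0.049 at 20 and 0.58 at 28 months for Gusb. Starts named outside the rule that were past 2-fold at 2 months and turned were Cd3d (-0.22 at 20 and -0.19 at 28 months) and, at 28 months, Lck (-0.27), Cd3e (-0.63) and Ccr7 (-0.54). For Hoxa11 the 2-m T-cell start held 11.2 normalized counts and the later ones 103 and 172, while muscle went from 57.3 to 15.2 and 41.4.

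In gene bodies, Tcf7 stood at -0.11 and -0.37 and Klf2 at -0.080 and -1.75 at 20 and 28 months. At 28 months Cd3d was at -0.54, Hoxc11 at -1.39 and Sln at 0.88. Of the named windows, Hoxc (chr15:102900001-103000000) was at -0.41 and the receptor window chr14:54100001-54200000 at -0.10 at 28 months. The 28-m muscle library separated CpG-rich from CpG-free bins 8.29-fold, against 47 at 2 months.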

How the results depend on the processing

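No paired analysis was possible because each tissue has 1 library. Scaling to the same sum moved most counts: 1844776 and 236213 bins, 1308 and 1 windows, 10580 and 817 regions, and 3397 and 726 gene starts were called for muscle and T cells. It put the mean bin difference at 0.79, bins of 0 to 2 CpGs at 0.96 and masked bins at 0.87, and turned the sign of bins with 7 to 14 CpGs (0.49) and 15 or more (0.41), of gene starts (median 0.53) and of gene bodies (0.65). Equal sums without the 1000 fullest bins moved bins of 7 to 14 CpGs to -0.17. Scaling within each CpG count gave a mean bin difference of 0.10, gene starts at -0.15, masked bins at 0.16, and 0.20, -0.036 and -0.045 for 0 to 2, 7 to 14 and 15 or more CpGs. A pseudocount of 0.25 gave a bin mean of 0.41, 0.93 for 0 to 2 CpGs and 0.53 for masked bins. A pseudocount of 5 gave 293902 and 188177 bins, 1379 and 1501 regions, a bin mean of 0.089, 0.23 for 0 to 2 CpGs and 0.15 for masked bins. Bins with a mean of at least 5 gave 350806 and 265956 calls, a mean of 0.064, 0.44 and -0.25 for 0 to 2 and 15 or more CpGs, and 0.16 for masked bins. With T-cell reads thinned to the muscle depth the bin mean was 0.28.

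Windows called were 25 and 45 over bins under 50% masked, 50 and 69 at 50 kb, 0 and 8 at 500 kb, and 3 for T cells by the mean over bins, which turned chr9:35300001 (0.13), chr12:3100001 (0.21), chr13:77400001 (0.32) and chr10:3100001 (0.13). Without the 1000 fullest bins chr12:3100001 (0.046), chr13:77400001 (0.19) and chr10:3100001 (0.10) turned. Regions of at least 4 bins numbered 137 and 94, and with 50 normalized counts 353 and 836. Within 2 kb of starts T cells were higher at 1378 and the median was -0.13, with Hoxd1 at 0.097, Gusb at 0.28 and the Hoxb1 body at 0.030. Within 500 bp muscle was higher at 693 and the median was -0.28, with Pax3 at -1.41 and Ifngr1 at 0.48.

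Called anew in the 20-m libraries there were 35 and 66 windows, 6922 T-cell-higher regions and 4247 T-cell-higher starts (median -0.50). In the 28-m libraries there were 1460 and 1397 windows, 10495 and 18909 regions, and 4331 and 5392 starts (median -0.30). Among genes and windows picked by the rule, signs turned at 20 months for the starts of Pax3 (-1.26), Prdm1 (-0.45), Tcf21 (-1.91), Tbx18 (-0.20), Hoxa11 (-2.69) and Gusb (0.049) and the bodies of Tcf7 (-0.11) and Klf2 (-0.080). At 28 months they turned for the starts of Pax3 (-1.65), Pax7 (-1.09), Runx3 (-0.51), Ifngr1 (0.11), Csf1r (-0.21), Col3a1 (0.65), Tcf21 (-2.82), Tbx18 (-1.44), Hoxa11 (-2.03), Hoxc8 (-1.45) and Gusb (0.58), the bodies of Sln (0.88), Cd3d (-0.54), Tcf7 (-0.37), Klf2 (-1.75) and Hoxc11 (-1.39), and the windows chr15:102900001 (-0.41) and chr14:54100001 (-0.10). The causes were not tested. Leaving out each RNA library kept the difference between the highest and the unread class. Depth limits low bins, where 1 read is worth 0.91 (muscle) and 1.02 (T cells) normalized counts.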

Other observations

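Olfactory receptor genes leaned towards muscle at their starts. Of 1103 Olfr genes 755 passed the minimum, muscle was past 2-fold at 79 (10.5%, against 7.74% of all starts) and T cells at 12 (1.59%, against 17.0%), and the median was 0.18, or 0.40 above all starts. At 20 and 28 months it was 0.29 and 0.52. All starts outside CpG islands had a median of -0.13 at 2 months, and bins with few CpGs leaned towards muscle genome-wide. Starts with a CpG content equal to that of the Olfr genes were not compared. Zinc finger genes (Zfp) had 16 and 49 of 261 measured starts past 2-fold (6.13 and 18.8%, against 7.74 and 17.0% of all starts) and a median of -0.31, or -0.083 relative to all starts.

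Over all genes, and chosen after their values were seen, the widest start differences on the muscle side were at genes of blood cells such as Fermt3, the gene of the integrin activator kindlin-3, with 98.2 against no read (at least 32.3-fold), and Pik3cg, the gene of a leukocyte lipid kinase, with 79.1 against no read (at least 26.0-fold). On the X chromosome, which is not part of the comparison above, the sums differed 1.02-fold.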
